A study of Homo sapiens with 9 samples.

Results

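LAMP3, PLSCR1, EPSTI1, CMPK2, SAMD9, SAMD9L and LGALS3BP are 7 genes that cells switch on in response to interferon. They were followed here in 3 stable lines of T47D, an established human cell line of luminal breast cancer. All probes that carry one of these gene names were taken, which gave 9 probes for the 7 genes among 58201 probes for 43395 genes. The genes were chosen by the differences already seen between these lines, so their own levels and folds are given as a description and support no test.

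T47D-PA6 carries the full PTH-AS sequence, T47D-PA5 carries an incomplete fragment that lacks part of its 5′ end, and T47D-VC1 carries the empty control vector. PTH-AS is a long noncoding RNA encoded downstream of the parathyroid hormone gene PTH, and no probe bears its name. All 3 lines were transfected with the pTARGET vector and selected with G418, and the study used 1 selected high expresser for each insert, so each group stands for 1 line. RNA of each line was measured on 3 single-colour microarrays, 9 in all, and nothing states that the replicates were separate cultures, so p-values measure only the spread between arrays. The comparison asks how the levels of these genes differed between the line with the complete transcript, the line with the truncated fragment and the control line. All 9 markers of luminal breast epithelium were well above background on every array. From 44% to 48% of probes were well above background on an array, and 26171 probes for 20106 genes were tested.

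Interferons bind receptors whose kinases JAK1 and TYK2 phosphorylate transcription factors of the STAT family. STAT2 and IRF9 belong to a complex called ISGF3, which binds the interferon-stimulated response element in the promoters of its target genes. Another element of interferon-responsive promoters is the gamma-activated sequence. Many of the induced proteins restrict viruses, and several of the 7 genes are also known from cancer cells and from mature dendritic cells.

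The promoter stretches below are shown because both elements are defined by their letters. They come from RefSeq windows of 300 bases on GRCh38.p14, 250 before and 50 after each start site, and 6 of the 7 genes matched. LAMP3 has no entry there. Capitals mark matches to GAAA followed by 2 free bases and GAAA, the core of the interferon-stimulated response element, or to GAAANGAAA, a form with 1 free base that was searched only after the sequences were read. Both strands were searched, and all stretches lie on the minus strand and are printed 5′ to 3′.
PLSCR1, chr3:146544614-146544716: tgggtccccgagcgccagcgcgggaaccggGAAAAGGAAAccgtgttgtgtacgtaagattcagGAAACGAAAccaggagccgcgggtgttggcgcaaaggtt
EPSTI1, chr13:42992252-42992321: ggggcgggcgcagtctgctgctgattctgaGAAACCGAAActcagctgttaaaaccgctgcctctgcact
CMPK2, chr2:6865820-6865863: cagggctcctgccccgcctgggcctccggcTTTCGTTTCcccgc
SAMD9, chr7:93118076-93118150: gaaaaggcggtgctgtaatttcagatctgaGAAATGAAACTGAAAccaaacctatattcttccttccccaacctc
SAMD9L, chr7:93148386-93148485: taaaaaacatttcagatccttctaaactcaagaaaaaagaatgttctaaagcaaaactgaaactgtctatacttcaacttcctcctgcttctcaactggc
LGALS3BP, chr17:78979942-78980011: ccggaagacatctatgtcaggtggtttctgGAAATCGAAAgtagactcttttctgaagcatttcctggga

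The core with 2 free bases was found in the windows of PLSCR1, EPSTI1, SAMD9 and LGALS3BP. It occurs in 3.57% of all 35116 promoter windows, and in at least 1 window of 4.38% of 27305 genes. In PLSCR1, which has 2 windows, it lies at −79 to −70 from one start site and at −91 to −82 from the other, in EPSTI1 at −50 to −41, in LGALS3BP at −58 to −49 and in SAMD9 at −136 to −127. The form with the shorter spacer occurs in 3.12% of windows and in 3.87% of genes. It was found in PLSCR1, in SAMD9 and in 1 of the 3 windows of CMPK2. In SAMD9 it overlaps the core, and the capitals cover both. In that CMPK2 window it lies on the opposite strand at −14 to −6 and again at 11 to 19. Neither form is in the SAMD9L window. The gamma-activated sequence TTCNNNGAA occurs in 7.66% of windows and in 9.38% of genes. It was found in PLSCR1, at 20 to 28 or 8 to 16 from the same start sites. In EPSTI1 it lies at −56 to −48, where it overlaps the core. A match here is a description of the letters only.

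Every one of the 7 genes had its highest mean signal in T47D-PA6, its lowest in T47D-VC1, and an intermediate one in T47D-PA5. The difference between T47D-PA6 and T47D-VC1 ran from 4.12-fold for LGALS3BP to 43.9-fold for LAMP3. On the log2 scale its median over the genes was 3.10, beside −0.03 for all genes tested. For T47D-PA5 over T47D-VC1 the median was 1.72, beside −0.03, and for T47D-PA6 over T47D-PA5 it was 1.44, beside −0.00092. These comparisons share arrays, so they are not independent of each other. In RNA from a whole culture, fewer expressing cells and less RNA per cell cannot be told apart.

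**Figure D1:**
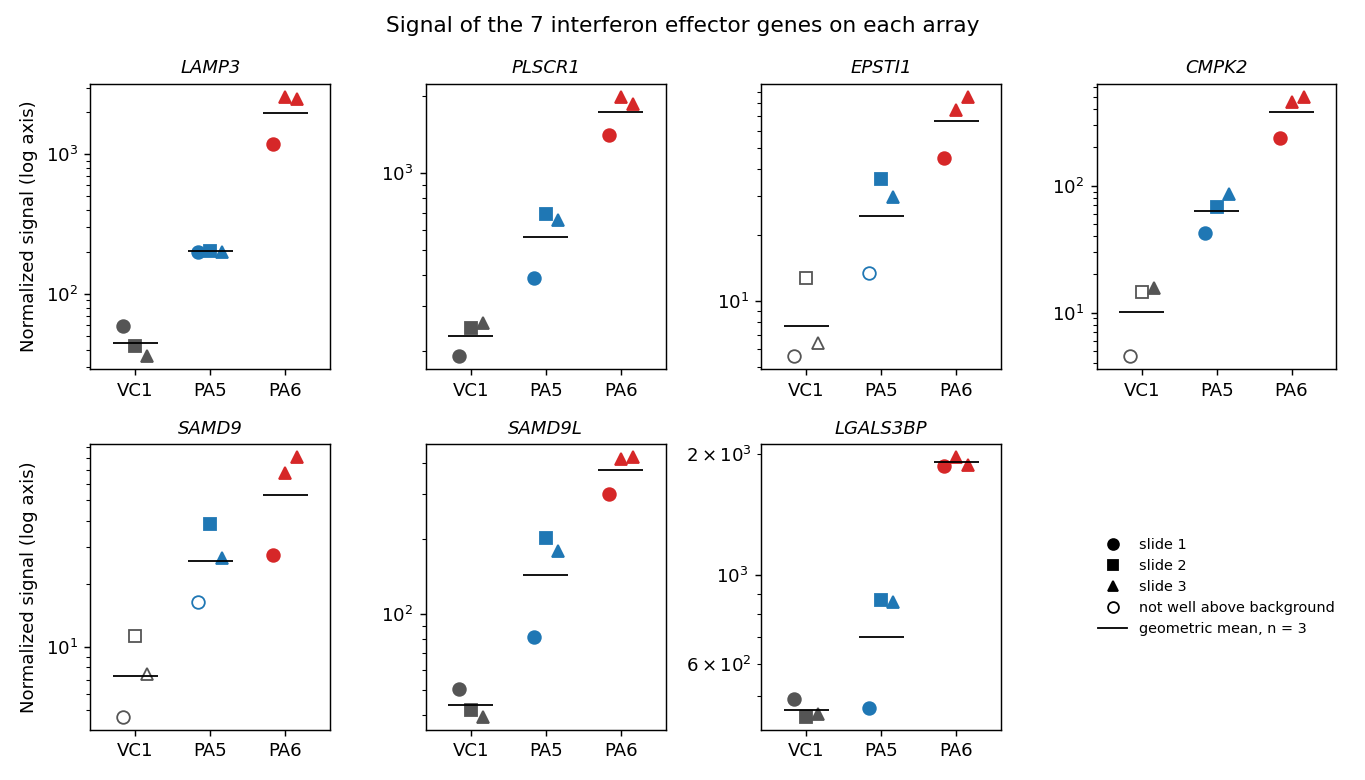
Normalized signal (log axis) of each of the 7 genes on every array of the 3 lines; the marker shape gives the slide, open markers are signals not well above background, and bars are geometric means (n = 3). LAMP3 sits between 1192 and 2592 in T47D-PA6 and between 36.0 and 59.2 in T47D-VC1, and the LGALS3BP signal of 469 in T47D-PA5 replicate 1 lies among the T47D-VC1 signals.

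LAMP3 encodes a glycoprotein of the lysosomal membrane that marks mature dendritic cells. Its probe maps to chr3:182840063-182840122 on hg19, the build of the positions in the files. The signal was 59.2, 42.6 and 36.0 in T47D-VC1 replicates 1, 2 and 3. It was 201.3, 203 and 201.6 in T47D-PA5, and 1192, 2592 and 2486 in T47D-PA6. The 3 lines did not overlap on any array. Geometric means were 45.0, 202 and 1973, so T47D-PA6 exceeded T47D-VC1 by 5.46 ± 0.30 on the log2 scale (SE from limma, n = 3 arrays a line). T47D-PA5 exceeded T47D-VC1 by 2.17 ± 0.30, or 4.49-fold, and T47D-PA6 exceeded T47D-PA5 by 3.29 ± 0.30, or 9.77-fold. The replicates of T47D-PA5 nearly coincided, with an SD of 0.0065 on the log2 scale beside a median of 0.15 over all genes in that line. In T47D-PA6 the SD of LAMP3 was 0.63 because replicate 1 was lower than both other arrays.

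PLSCR1 encodes a palmitoylated phospholipid scramblase of the plasma membrane that can also enter the nucleus and restrict viral entry. Its probe maps to chr3:146233062-146233121. The signal was 192, 247 and 258 in T47D-VC1 and 388, 688 and 657 in T47D-PA5. In T47D-PA6 it was 1414, 1991 and 1859. No array of a line overlapped with another line, and replicate 1 was the lowest in each line. T47D-PA6 exceeded T47D-VC1 by 2.91 ± 0.24 on the log2 scale, or 7.54-fold. The difference was 1.28 ± 0.24, or 2.43-fold, for T47D-PA5 over T47D-VC1 and 1.63 ± 0.24, or 3.10-fold, for T47D-PA6 over T47D-PA5.

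EPSTI1 encodes a protein known from breast cancer cells grown with stromal fibroblasts. Its probe crosses an exon junction, with ends at 43500538 and 43528115 on chromosome 13. The signal was 5.60, 12.7 and 6.40 in T47D-VC1, and none of these was well above background. It was 13.5, 36.0 and 29.8 in T47D-PA5, where the latter pair was well above background, and 45.1, 74.9 and 85.9 in T47D-PA6, where all were. T47D-PA6 was at least 5.31-fold higher than T47D-VC1. This bound sets the measured mean against, on each T47D-VC1 array, whichever was higher of the gene's own signal and the array's lowest well-measured signal, meaning one well above background. No bound is given for T47D-PA5, which was measured above background on 2 of 3 arrays. T47D-PA6 exceeded T47D-PA5 by 1.44 ± 0.44 on the log2 scale, and the lowest T47D-PA6 array was above the highest T47D-PA5 array.

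CMPK2 encodes the mitochondrial UMP-CMP kinase, which supplies nucleotide precursors for mitochondrial DNA and is known as an interferon-induced restrictor of viruses. Of its 2 probes, the one at chr2:6988467-6988526 was tested and the one at chr2:6990844-6990903 was not. The tested probe gave 4.56, 14.4 and 15.8 in T47D-VC1, well above background on replicate 3 alone. It gave 42.3, 67.5 and 86.5 in T47D-PA5, and 237, 452.5 and 503 in T47D-PA6. The lines did not overlap. T47D-PA6 exceeded T47D-VC1 by 5.22 ± 0.51 on the log2 scale, or 37.3-fold, with T47D-VC1 measured above background on 1 of 3 arrays. T47D-PA5 exceeded T47D-VC1 by 2.63 ± 0.51, or 6.20-fold, and T47D-PA6 exceeded T47D-PA5 by 2.59 ± 0.51, or 6.02-fold. The untested probe stayed between 2.80 and 6.12 on the 9 arrays and was not well above background on any, so the probes of CMPK2 disagree.

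SAMD9 and SAMD9L are neighbouring paralogs on chromosome 7 that restrict poxviruses and limit cell growth. The SAMD9 probe, at chr7:92729782-92729841, gave 4.66, 11.3 and 7.45 in T47D-VC1, none of them well above background. It gave 16.4, 38.8 and 26.5 in T47D-PA5, well above background on replicates 2 and 3, and 27.6, 67.4 and 80.2 in T47D-PA6. T47D-PA6 was at least 4.26-fold higher against T47D-VC1, and no bound is given for T47D-PA5. The lines with PA6 and PA5 overlapped, since T47D-PA6 replicate 1 was below T47D-PA5 replicate 2, and their difference was 1.05 ± 0.49 on the log2 scale.

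SAMD9L was read by probes at chr7:92760219-92760278 and chr7:92760590-92760649. The brighter probe was well above background on all 9 arrays, with 50.5, 41.7 and 39.3 in T47D-VC1, 81.7, 201.5 and 178 in T47D-PA5, and 302, 414 and 420 in T47D-PA6. No lines overlapped. T47D-PA6 exceeded T47D-VC1 by 3.10 ± 0.32 on the log2 scale, or 8.59-fold, and T47D-PA5 exceeded T47D-VC1 by 1.72 ± 0.32, or 3.28-fold. T47D-PA6 exceeded T47D-PA5 by 1.39 ± 0.32, or 2.62-fold. The other probe, well above background on 1 of 3 T47D-VC1 arrays, gave differences of 2.95 ± 0.45, 1.62 ± 0.45 and 1.33 ± 0.45 in the same order, so the probes of SAMD9L went the same way. The probes of SAMD9 and SAMD9L share runs of at most 8 bases.

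LGALS3BP encodes a secreted glycoprotein that binds galectins and is abundant in the medium of many cancer cells. Its probe gave 492, 445 and 452 in T47D-VC1, 469, 868 and 857 in T47D-PA5, and 1875, 1964 and 1884 in T47D-PA6. T47D-PA6 stood above both other lines on every array, with an SD of 0.037 on the log2 scale beside a median of 0.18 over all genes in that line. T47D-PA5 and T47D-VC1 overlapped through T47D-PA5 replicate 1. The difference was 2.04 ± 0.22 on the log2 scale, or 4.12-fold, for T47D-PA6 over T47D-VC1 and 1.44 ± 0.22, or 2.71-fold, for T47D-PA6 over T47D-PA5. For T47D-PA5 over T47D-VC1 it was 0.61 ± 0.22, or 1.52-fold.

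**Figure D2:**
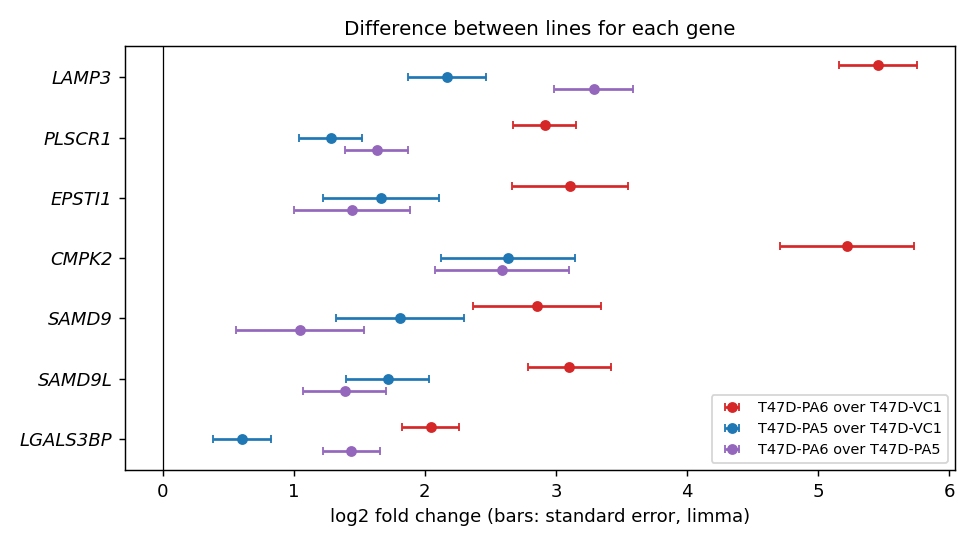
Log2 fold change of each of the 7 genes in the 3 comparisons, with bars of 1 standard error from limma (n = 3 arrays a line); EPSTI1 and SAMD9 were not well above background in T47D-VC1, so their differences from that line are fitted values and not measured on both sides. LAMP3 and CMPK2 lie at 5.46 and 5.22 in T47D-PA6 over T47D-VC1, and the other genes lie between 2.04 and 3.11.

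With normexp, an alternative background correction (offset 50), the differences of T47D-PA6 from T47D-VC1 were 4.33 for LAMP3, 2.65 for PLSCR1, 0.995 for EPSTI1, 2.68 for CMPK2, 0.77 for SAMD9, 2.14 for SAMD9L and 1.90 for LGALS3BP on the log2 scale.

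With the adjusted p-value of limma under 0.05, all 7 genes passed as higher in T47D-PA6 against T47D-VC1, where 4.69% of all genes tested were called higher. In T47D-PA5 over T47D-VC1, 4 of the 7 were called higher (LAMP3, PLSCR1, CMPK2 and SAMD9L), beside 1.37% of all genes. In T47D-PA6 over T47D-PA5, 5 were called higher (all but EPSTI1 and SAMD9), beside 3.65% of all genes. Nothing is read from these counts, because the genes were chosen for this contrast, and EPSTI1, CMPK2 and SAMD9 entered the test only through lines in which they were high. LAMP3, PLSCR1, SAMD9L and LGALS3BP were well above background on all 9 arrays. By the definition in the study's methods, a ratio above 2 to T47D-VC1 without a test, T47D-PA6 held all 7 beside 3.47% of genes and T47D-PA5 held 6 beside 2.17%. Set against T47D-PA5, T47D-PA6 was above 2-fold for 7, beside 2.69%. Every T47D-PA6 array lay above every T47D-VC1 array for 7 of 7 genes, beside 13.1% of all genes. The same held for 6 in T47D-PA5 over T47D-VC1, beside 11.2%, and for 6 in T47D-PA6 over T47D-PA5, beside 14.3%.

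The number of the 7 genes that limma called in T47D-PA5 over T47D-VC1 changed when single arrays were left out, while the differences stayed above 0, between 0.45 and 2.95 on the log2 scale. The count was 0 without T47D-VC1 replicate 2, T47D-VC1 replicate 3, T47D-PA5 replicate 2 or T47D-PA5 replicate 3, with 6 genes at an unadjusted p under 0.05 each time. It was 1 without T47D-PA6 replicate 2 or 3, which enter through the shared spread, 2 without T47D-VC1 replicate 1, and 5 without T47D-PA5 replicate 1. The count in T47D-PA6 over T47D-PA5 was 3 without T47D-PA6 replicate 2 or 3.

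Slide 1 held replicate 1 of all 3 lines and was scanned before the others. Slide 2 carried T47D-VC1 replicate 2 and T47D-PA5 replicate 2, and the remaining 4 arrays were on slide 3. Relative to the mean of replicates 2 and 3, replicate 1 was lower for 7 of 7 genes in T47D-PA5, by up to 1.28 on the log2 scale for EPSTI1, and for 7 of 7 in T47D-PA6, by up to 1.41 for SAMD9. The smallest of these shifts were those of LAMP3 in T47D-PA5, −0.0071, and of LGALS3BP in T47D-PA6, −0.037. In T47D-VC1 replicate 1 was lower for 4 of 7 genes, by up to 1.72 for CMPK2. The corresponding medians over all genes were 0.011 in T47D-PA5, −0.044 in T47D-PA6 and 0.0020 in T47D-VC1. Slide and replicate number cannot be told apart for replicate 1.

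Computed within a slide, T47D-PA6 exceeded T47D-VC1 for 7 of 7 genes on slide 1, by 1.93 to 5.70 on the log2 scale, and on slide 3, by 2.09 to 6.14. PLSCR1 hardly moved between these slides, with 2.88 and 2.90, whereas LAMP3 gave 4.33 on slide 1 and 6.14 on slide 3. T47D-PA5 exceeded T47D-VC1 for 6 of 7 genes on slide 1 and for 7 of 7 on slides 2 and 3. The exception was LGALS3BP, with −0.071 on slide 1 against 0.97 on slide 2 and 0.92 on slide 3. SAMD9L also differed between slides there, with 0.69, 2.27 and 2.18, while SAMD9 gave 1.81, 1.79 and 1.83. T47D-PA6 exceeded T47D-PA5 for 7 of 7 genes on both slides that hold these lines, by 0.76 to 2.57 on slide 1 and by 1.17 to 3.65 on slide 3. When slide entered the fit as a block, the genes called higher numbered 7, 6 and 7 in the 3 comparisons. The share of all genes called in that fit is not given here, so nothing is read from these counts.

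**Figure D3:**
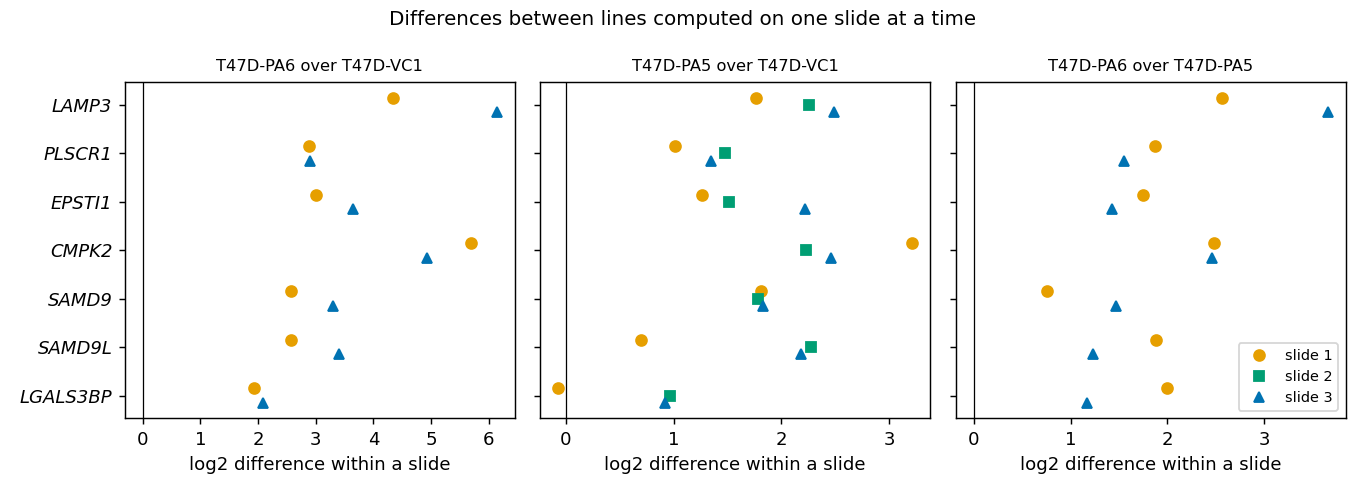
Log2 difference between lines for each of the 7 genes, computed on one slide at a time, with a panel for each comparison; each point is a mean over the 1 or 2 arrays a line has on that slide, and no error is drawn. All points but one lie above 0, the exception being LGALS3BP in T47D-PA5 over T47D-VC1 on slide 1 at −0.071.

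Among genes well above background on all 9 arrays, those with the most similar course were found by the root mean square difference of log2 signals, each relative to the mean of the T47D-VC1 arrays. This was computed over 9 arrays and 18231 candidate genes, and is a description. LAMP3 was nearest to IFIT3 (0.49), OASL (0.50) and IFIT2 (0.62). PLSCR1 was nearest to IFITM2 (0.12), HERC5 (0.15) and DTX3L (0.20), and SAMD9L to IRF7 (0.16), PARP9 (0.20) and IRF9 (0.23). LGALS3BP was nearest to UBE2L6 (0.12), PSMB8 (0.18) and PARP10 (0.18). Among LAMP3, PLSCR1, SAMD9L and LGALS3BP, the 4 of the 7 genes well above background on all 9 arrays, the smallest difference between a pair was that of PLSCR1 and SAMD9L, 0.36, and the largest that of LAMP3 and LGALS3BP, 2.20.

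Of 58 other genes of the interferon pathway, 49 were tested. Limma called 39 higher, beside 4.69% of all genes, and 0 lower in T47D-PA6 than in T47D-VC1. In T47D-PA5 over T47D-VC1 it called 16 higher, beside 1.37% of all genes, and 0 lower. In T47D-PA6 over T47D-PA5 it called 37 higher, beside 3.65%, and 0 lower. The median log2 fold changes were 2.83, 1.23 and 1.49. The list was written with earlier results of these lines known, and the study itself singled out some of its genes on these samples, so it is not independent evidence of their direction. The count in T47D-PA5 over T47D-VC1 was 6 without T47D-VC1 replicate 2, 1 without T47D-VC1 replicate 3, 5 without T47D-PA5 replicate 2, 2 without T47D-PA5 replicate 3 and 30 without T47D-PA5 replicate 1. In T47D-PA6 over T47D-PA5 it was 20 without T47D-PA6 replicate 2 or 3.

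By role, STAT2 and IRF9, which belong to ISGF3, rose in T47D-PA6 over T47D-VC1 by 1.23 ± 0.20 and 3.16 ± 0.25 on the log2 scale (limma adjusted p = 0.0081 and 0.0005). The kinase JAK1 gave −0.42 (limma adjusted p = 0.11). In T47D-PA5 over T47D-VC1, IRF9 rose by 1.99 ± 0.25 (limma adjusted p = 0.0089), and STAT2 gave 0.41 ± 0.20 (limma adjusted p = 0.36). Of 6 interferon receptor genes, limma called 0 in T47D-PA6 over T47D-VC1 or in T47D-PA5 over T47D-VC1, with 2 at an unadjusted p under 0.05 in each, and the unpaired test of the study's methods called 0 after adjustment. IFNGR1, a chain of the interferon gamma receptor, stood 0.47 ± 0.11 higher in T47D-PA6 against T47D-PA5 (limma adjusted p = 0.036).

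Of 9 listed interferon genes, the lambda interferons IFNL1 and IFNL2 were tested. IFNL1 was not well above background in T47D-VC1, and T47D-PA6 exceeded it at least 4.69-fold (limma adjusted p = 0.0026). It entered the test only through T47D-PA6, where it was high, so this p-value is a description. IFNL2 rose in T47D-PA6 against T47D-VC1, with a log2 fold change of 2.79 ± 0.23 (limma adjusted p = 0.00057) and mean signals of 191 and 27.6. IFNL2 has a near-identical copy, IFNL3, and a probe may read both.

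Of 38 interferon effectors, 36 were tested and 34 rose in T47D-PA6 over T47D-VC1, beside 4.69% of all genes called higher. MX2 and SP100 did not pass. The effectors with the largest fitted rise were IFI44, OAS1, IFI27 and IFI6. IFI44 was not well above background in T47D-VC1, and T47D-PA6 exceeded it at least 137-fold (limma adjusted p = 0.00073). OAS1, a sensor of double-stranded RNA, rose by a log2 value of 7.14 ± 0.58 (limma adjusted p = 0.00052), and was well above background on 1 of 3 T47D-VC1 arrays. IFI27 and IFI6, mitochondrial interferon-induced proteins, rose by 7.09 ± 0.72 and 6.63 ± 0.61 (limma adjusted p = 0.0012 and 0.00072). In T47D-PA5 over T47D-VC1, 15 effectors rose, among them OAS1, IFI27, IFI6 and MX1, by 3.41 to 4.22 on the log2 scale, with limma adjusted p from 0.012 to 0.037. In T47D-PA6 over T47D-PA5, 31 rose. Of all genes, 1.37% were called higher in T47D-PA5 over T47D-VC1 and 3.65% in T47D-PA6 over T47D-PA5.

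Of 40 genes that belong to the protein families of the 7 or are galectins, which LGALS3BP binds, 32 were tested. The median log2 fold change of the 32 was −0.010 in T47D-PA6 over T47D-VC1. Limma called 4 higher there, beside 4.69% of all genes, and 0 lower. The count was 2 without T47D-VC1 replicate 3 or T47D-PA6 replicate 2 and 8 without T47D-PA6 replicate 1. LAMP1 and LAMP2, the lysosomal membrane proteins related to LAMP3, gave −0.03 and 0.16 in T47D-PA6 over T47D-VC1 (limma adjusted p = 0.90 and 0.46). CMPK1, the cytosolic counterpart of CMPK2, gave −0.24 (limma adjusted p = 0.33). Of 10 nucleotide kinases limma called 0 in this comparison, with 4 at an unadjusted p under 0.05, and the unpaired test of the methods called 0.

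The scramblase PLSCR3 gave 0.05 in T47D-PA6 over T47D-VC1 (limma adjusted p = 0.84). PLSCR4, whose probe lies at −322443 bases from that of PLSCR1, was not well above background in T47D-VC1. T47D-PA6 exceeded that line at least 1.69-fold (limma adjusted p = 0.0030) and T47D-PA5 did so at least 2.08-fold (limma adjusted p = 0.0050). The mean signal of PLSCR4 was 25.9 on the T47D-PA5 arrays, 21.0 on those of T47D-PA6 and 3.62 on those of T47D-VC1. Between T47D-PA6 and T47D-PA5 its difference was −0.30 ± 0.32 on the log2 scale (limma adjusted p = 0.62). For PLSCR1 itself, T47D-PA6 exceeded T47D-PA5 by 3.10-fold.

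SAMD12, another gene with a SAM domain, was not well above background in T47D-VC1 or T47D-PA5. In T47D-PA6 it was at least 3.90-fold higher against T47D-VC1 (limma adjusted p = 0.011) and at least 3.73-fold higher against T47D-PA5 (limma adjusted p = 0.0085). SAMD12 entered the test only through T47D-PA6, where it was high, so these p-values are a description. SAMHD1, a nucleotide triphosphohydrolase that is also an interferon effector, rose by 0.68 ± 0.14 over T47D-VC1 (limma adjusted p = 0.020). Of the galectins, the binding partners of LGALS3BP, LGALS1 rose by 0.47 ± 0.12 in the same comparison (limma adjusted p = 0.048). LGALS3 gave 0.11 there (limma adjusted p = 0.56). LGALS9 rose in T47D-PA6 against T47D-PA5 by 0.84 ± 0.17 (limma adjusted p = 0.021).

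**Figure D4:**
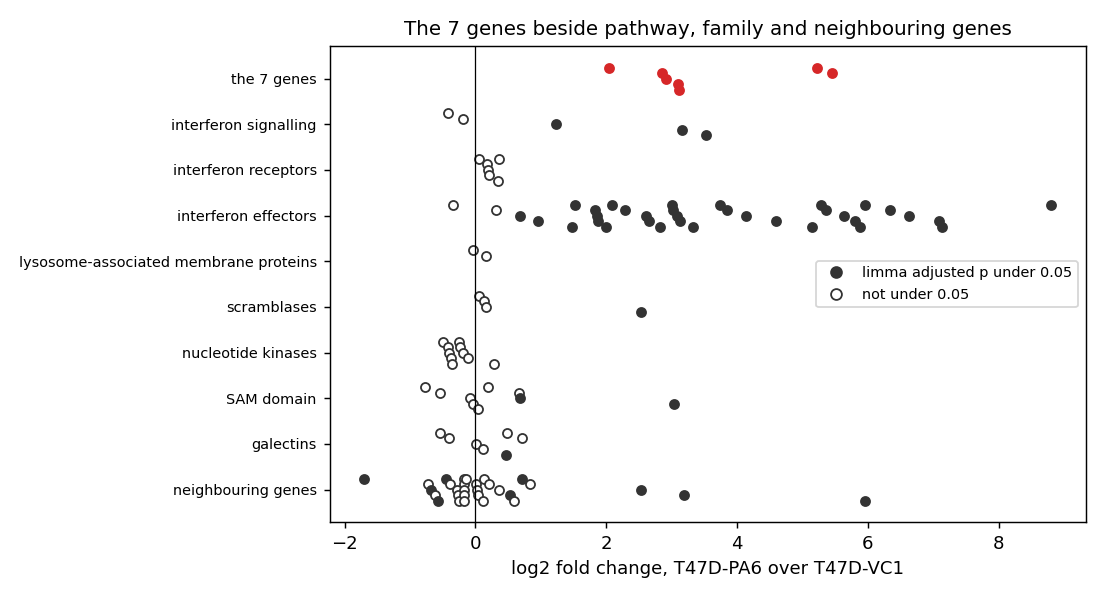
Log2 fold change, T47D-PA6 against T47D-VC1, for the 7 genes (red) and for other genes. The other genes are those of interferon signalling, receptors and effectors, the protein families with the galectins, and the neighbouring positions. Interferon ligands are not drawn. Filled points had a limma adjusted p under 0.05 (n = 3 arrays a line), and vertical offsets only separate points. All 7 red points are filled, but these genes were chosen for this contrast, so their filling supports no test. Of the tested effectors 34 of 36 are filled, all to the right of 0. The family and galectin genes have a median of −0.010, with 4 filled of 32. Of these 4, SAMHD1 and LGALS1 lie at 0.68 and 0.47. SAMD12 and PLSCR4, not well above background in T47D-VC1, lie at fitted values of 3.04 and 2.54.

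The genes beside the 7 on the chromosomes were also read. Up to 3 tested genes on each side within 1 Mb gave 30. Limma called 5 of them higher in T47D-PA6 over T47D-VC1, beside 4.69% of all genes, and 4 lower. The share of all genes called lower is not given here. The 5 called higher were RSAD2, PLSCR4, CDK6, GNGT1 and a probe without a gene name beside LGALS3BP. Of these, RSAD2 is also an interferon effector and PLSCR4 also a scramblase. These 9 became 4 without T47D-VC1 replicate 3 and 3 without T47D-PA6 replicate 2 or 3. RSAD2 encodes the antiviral protein viperin, and its probe lies 48733 bases from that of CMPK2. It was not well above background in T47D-VC1, and T47D-PA6 exceeded it at least 24.5-fold (limma adjusted p = 0.0018). T47D-PA6 exceeded T47D-PA5 for RSAD2 by a log2 value of 3.86 ± 0.67 (limma adjusted p = 0.011), with T47D-PA5 well above background on 2 of 3 arrays. RSAD2 entered the test only through T47D-PA6, where it was high, so its p-values are a description. CALCR, the calcitonin receptor gene beside SAMD9 and SAMD9L, fell by 1.71 ± 0.31 in T47D-PA6 (limma adjusted p = 0.014) and by 2.34 ± 0.31 in T47D-PA5 (limma adjusted p = 0.011), which was well above background on 2 of 3 arrays. VPS50, the tested gene nearest to SAMD9L apart from its neighbour SAMD9, gave 0.12 in T47D-PA6 over T47D-VC1 (limma adjusted p = 0.60). CDK6 and GNGT1 rose by 0.72 and 0.53 there, and CANT1, MCCC1 and AKAP11 fell by 0.67, 0.57 and 0.45 (limma adjusted p = 0.014 to 0.035).

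A probe without a gene name lies on the other strand beside the LGALS3BP probe, with 226 bases between them. The pair is shown because its members read opposite strands of 1 short stretch. Both sequences are 60 bases long and come from the array files.
LGALS3BP probe, minus strand, chr17:76968048-76968107 on hg19: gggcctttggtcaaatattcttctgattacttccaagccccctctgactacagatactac
Opposite-strand probe, plus strand, chr17:76968334-76968393 on hg19: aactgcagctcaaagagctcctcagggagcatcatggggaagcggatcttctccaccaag

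The opposite-strand probe gave 2.93, 2.99 and 3.001 in T47D-VC1, 7.17, 10.71 and 6.42 in T47D-PA5, and 23.6, 26.7 and 31.9 in T47D-PA6. It was well above background on the 3 T47D-PA6 arrays only. In T47D-PA6 it was at least 2.18-fold higher against T47D-VC1 (limma adjusted p = 0.00025) and at least 2.09-fold higher against T47D-PA5 (limma adjusted p = 0.0023). Since the probe entered the test only through T47D-PA6, these p-values are a description. The array files place 99.3% of 23810 named probes on the strand of their RefSeq gene, and all 8 probes of the 7 genes that have a strand in both sources. The part of the LGALS3BP signal in that of the opposite-strand probe was not tested.

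Markers of other cell types were read on the same arrays. Mature dendritic cells hold LAMP3, and of 10 dendritic cell markers ITGAX, CCL22, CD1C and FLT3 were well above background on 0 of 9 arrays. CD83, CCR7 and CD86 were well above background on all 9, and CD80, CD40 and HLA-DRA on some. The summed signal of that list was 309 to 375 in T47D-VC1, 395 to 417 in T47D-PA5 and 313 to 352 in T47D-PA6, with 3, 4 and 5 of the genes well above background on every array of the line. In T47D-PA6, HLA-DRA was at least 1.38-fold higher against T47D-VC1 (limma adjusted p = 0.012), while CCR7 fell by 1.35 ± 0.13 (limma adjusted p = 0.00087). HLA-DRA entered the test only through T47D-PA6, where it was high, so its p-value is a description. Type II pneumocytes also hold LAMP3, and their markers SFTPB, SFTPA1 and NKX2-1 were well above background on 0 of 9 arrays. The summed signal of all 5 pneumocyte markers was 5400 to 10797 in T47D-VC1, 4784 to 5284 in T47D-PA5 and 5465 to 6211 in T47D-PA6. Nearly all of it came from the lipid transporter gene ABCA3, with means of 6887, 5013 and 5700. The surfactant gene SFTPC had means of 16.8, 18.0 and 21.3.
Of 4 leukocyte markers, 3 were well above background on all arrays, PTPRC and CD14 among them. CD3E was well above background on 0 of 9 arrays and CD14 rose by 1.80 ± 0.29 in T47D-PA6 over T47D-VC1 (limma adjusted p = 0.0082). The list's summed signal was 460 to 549 in T47D-VC1, 403 to 820 in T47D-PA5 and 567 to 708 in T47D-PA6. Of the luminal markers, PGR, the progesterone receptor gene, fell by 1.07 ± 0.17 in T47D-PA6 over T47D-VC1 (limma adjusted p = 0.0072). The summed luminal signal was 491673 to 530320 in T47D-VC1 and 504581 to 523056 in T47D-PA6, most of it from the keratin gene KRT19, with means of 301366 and 292579, so it says little of the other markers. KRT19 had an SD of 0 on the log2 scale in T47D-VC1 and in T47D-PA5. Quantile normalization gives probes of equal rank the same value, so the steadiness of this sum is partly set by the normalization. Of 3 fibroblast markers, DCN and LUM were well above background on 0 of 9 arrays. COL1A1, a collagen gene, fell by 0.50 ± 0.10 in T47D-PA6 over T47D-VC1 (limma adjusted p = 0.020), and the summed signal was 331 to 370 in T47D-VC1, 295 to 331 in T47D-PA5 and 244 to 271 in T47D-PA6. Of 3 endothelial markers, PECAM1 was well above background on 0 of 9 arrays, while VWF and CDH5 were so on all 9. The summed endothelial signal was 48.6 to 73.6 in T47D-VC1, 45.9 to 66.0 in T47D-PA5 and 45.3 to 54.2 in T47D-PA6. The part of these markers in the levels of the 7 genes was not tested beyond these values.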

How the data were processed

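For each of 9 single-colour arrays (Agilent SurePrint G3 Human Gene Expression v3), the authors deposited scanner files with the intensity of each spot, background-subtracted by Feature Extraction and not normalized between arrays. The submitters' notes name version 9.5.1.1 and the file headers name 10.7.1.1. A table of intensities that the authors had quantile-normalized was also deposited and served as an alternative.

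Of 62976 spots per array, 60901 were not controls and none of these was saturated, and 46 to 117 outlier spots per array were left out. Each probe's spots were averaged as log2 values, and the arrays were then quantile-normalized, the method that the study names. The test kept probes that Feature Extraction marked as well above background on all 3 arrays of 1 line or more, and the brightest kept probe on average stood for its gene. This filter admitted SAMD12, IFNL1, RSAD2, HLA-DRA and the opposite-strand probe only through T47D-PA6. It admitted IFI44, OAS1 and PLSCR4 only through T47D-PA5 and T47D-PA6. In those lines they were high, so their p-values against the other lines are a description. The lowest signal well above background was 9.59 to 15.2. Gene names were matched to RefSeq. The names of 31127 probes already were RefSeq symbols, 3343 probes took their symbol through the accession and 496 through a synonym. The other 23235 kept the name in the files. Differences between lines were fitted with limma 3.58.1 under R 4.3.3, over 9 arrays with 6 residual degrees of freedom, and Benjamini-Hochberg adjustment ran over 20106 genes at a threshold of 0.05. The data.table package (version 1.17.8) read the files, and the fit was tested on simulated data. Precision is limited by the number of arrays: with 3 against 3, an exact two-sided permutation test gives no p under 0.1.

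The 7 genes and all lists were chosen with earlier results of these data known. Named beside them were listed genes with an adjusted p under 0.05, at most 4 in each list and direction, genes directly paired with one of the 7, and the 3 genes with the most similar course for each of the 7 that was well above background on all arrays. JAK1, STAT2 and VPS50, where they did not pass, and the markers at background were named outside this rule, after their values were seen. So were MX2, SP100, GNGT1, CD14, PTPRC, KRT19, ABCA3, SFTPC, COL1A1, CD83, CD86, CD80, CD40, VWF and CDH5.

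The alternatives were a 75th percentile shift, normexp with an offset of 50, the authors' table, no filter or a stricter filter on dim probes, slide or replicate number as a block, the unpaired t-test of the methods, the mean of all probes of a gene, a fit to the compared lines alone, each array left out in turn, and slide 1 left out. The xenograft, qRT-PCR and Western blot data were not analysed here, and results for some listed genes are not reported here.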

Additional observations from a re-analysis of the deposited data

How the results depend on the processing

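The log2 fold changes of the 7 genes were above 0 in 459 of 460 values from 23 alternative settings. The exception was LGALS3BP in T47D-PA5 over T47D-VC1 within slide 1 (−0.071). These settings reuse the arrays on which the genes were chosen, and some leave the fold unchanged. The number is therefore a description and supports no test. Counts are given in the order T47D-PA6 over T47D-VC1 (comparison A), T47D-PA5 over T47D-VC1 (B) and T47D-PA6 over T47D-PA5 (C). The share of all genes called under each alternative setting is not given here, so nothing is read from a count under it. The reported counts were 7, 4 and 5 of the 7 genes higher, 39, 16 and 37 pathway genes higher, 4, 1 and 2 family or galectin genes (family genes below) called, and 9, 3 and 6 neighbouring genes called, and only counts that moved by over 1.5 times are printed here. The cause of these shifts was not tested, and in some settings fewer genes or arrays entered.

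With normexp, the 7-gene count in T47D-PA5 over T47D-VC1 was 2. The log2 fold changes of LAMP3, EPSTI1, CMPK2, SAMD9 and SAMD9L in T47D-PA6 over T47D-VC1, from 2.86 to 5.46 as reported, were then 4.33, 0.995, 2.68, 0.77 and 2.14. Without a filter, the 7-gene counts were 0 (7 at an unadjusted p under 0.05 in limma) and 3 in B and C, the pathway counts 4 and 22, and in C the family count was 1 and the neighbouring count 3. With probes well above background on all 9 arrays, only 4 of the 7 genes were tested and all 4 were called in A. There the family counts were 2, 0 and 1, and the neighbouring counts 5 and 0 in A and B (3 at an unadjusted p under 0.05 for each 0 in limma). With the slide as a block the family counts were 7 and 2 in A and B.

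Same-numbered arrays correlated at 0.0992 to 0.337 in their deviations from the line means, and nothing states that the numbers pair cultures. With the replicate block, the 7-gene counts were 7, 6 and 7, and the family counts were 8 and 2 in A and B. The t-test of the methods gave 4, 0 and 1 of the 7 genes (6 at an unadjusted p under 0.05 for the 0), pathway counts of 0 and 3 in B and C (31 unadjusted for the 0), family counts of 0, 0 and 1 (8 and 2 unadjusted), and neighbouring counts of 1, 0 and 2 (6 unadjusted). With only the compared lines in the fit, the 7-gene count was 1 and the pathway count 8 in B, and the family count was 4 in C.

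Leaving out each array in turn gave 7 to 7, 0 to 5 and 3 to 5 of the 7 genes, 37 to 40, 1 to 30 and 20 to 38 pathway genes, 2 to 8, 1 to 1 and 1 to 6 family genes, and 3 to 10, 2 to 4 and 3 to 7 neighbouring genes. Without slide 1, a setting chosen after seeing the data, all 7 genes and 40 pathway genes were called in B. The other counts rose too, to 21, 5 and 12 family genes, and to 8 and 10 neighbouring genes in B and C. EPSTI1, SAMD9 and CMPK2 were at or near background in T47D-VC1, which limits their differences from that line to bounds or to 1 measured array.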
